A study of Mus musculus with 18 samples.

Results

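Leptin treatment and calorie restriction were compared at matched food intake in the heart ventricle of leptin-deficient ob/ob mice. The comparison used the 5 arrays labelled as leptin treated and the 5 labelled as calorie restricted, chosen by their titles, of 18 arrays in all. Both groups were ob/ob mice on the C57Bl/6J background, aged 6 months when treatment began. The leptin treated mice received recombinant mouse leptin from an osmotic mini-pump for 1 month. The calorie restricted mice got no leptin, and for 1 month their food was limited to what the leptin treated mice ate. The labels describe no pump in the restricted mice, so the pump and the hormone cannot be told apart, and the time of the last meal is not given in the sources used here. Hearts were taken between 7 and 8 in the morning, and the tissue is labelled ventricular myocardium. Untreated ob/ob mice fed ad libitum (n = 4) and C57Bl/6J wild type mice (n = 4) are given for reference. An age of 6 months is given for both, with a period of 1 month for the ad libitum mice and none for wild type mice. The arrays of both reference groups also enter the fit, where they help set the spread behind the standard errors and p-values. No label says that arrays of a group came from separate mice, so p-values measure the spread between these arrays, which may be partly technical.

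Leptin is a hormone made by fat cells. It acts through the receptor Lepr and the JAK-STAT pathway, mainly in the brain, to lower food intake, and it raises energy expenditure, sympathetic tone and body temperature. The ob/ob mouse makes no functional leptin and is obese, cool and insulin resistant. Because leptin also lowers intake, a group fed the same amount without the hormone serves to separate the effects of leptin from those of eating less. The heart runs chiefly on fatty acids, and the nuclear receptor PPAR-alpha switches on genes for their uptake and burning when fatty acids reach the cell. The title of the series asks about fat stored in the heart muscle under calorie restriction.

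Values are MAS5 signals, a linear intensity in arbitrary units scaled to the same trimmed mean on every array. Differences are log2 (leptin minus calorie restriction) with the standard error (SE) of a limma fit, computed on the signal plus 5.13, and calls are genes with an adjusted p under 0.05 (Benjamini-Hochberg) over all 13359 genes tested. The 10 arrays resembled each other, with a median signal of 22.3 to 31.8. The 15 ventricular cardiomyocyte markers were strong on all arrays, with a summed signal of 80590 to 109200 with leptin and 93200 to 119900 with calorie restriction, and 0 of 15 were called. Calorie restricted replicates 2 and 3 stood apart in atrial transcripts. The signal of Nppa, the atrial natriuretic peptide, was 5724 and 5566 there and between 1086 and 2551 on the other 8 arrays. The summed signal of 13 atrial markers was 2437 to 3661 with leptin and 2344 to 16940 with calorie restriction, and 3 of the 13 were called lower with leptin. Counts are therefore also given without those 2 arrays, and a fit with an atrial covariate is among the alternatives at the end. How much of a single result comes from atrial tissue was not tested. In whole tissue, fewer cells of a type and less RNA per cell cannot be told apart.

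At equal food intake the ventricles differed at many genes. Of 13359 genes tested, 1819 were called (13.6%), of which 1055 were higher with leptin (7.9%) and 764 were lower (5.72%). These 3 shares are the background for every count of a gene list below. Most differences were modest, with a median log2 difference of 0.51 among the genes called higher and -0.45 among those called lower. At least 2-fold differences were found for 92 genes higher with leptin and 47 lower. The 2 groups of 5 arrays did not overlap at 1453 genes (10.9%), of which 1233 were called, so most called genes did not overlap. Without calorie restricted replicates 2 and 3 the calls came to 1029, of which 676 were higher and 353 lower. Each gene stands for its probe set of highest mean. With the mean of its probe sets instead, 1296 genes were called, and Cacna1h, Cd36, Cox8a, Dgat1, Fn1, Lipe, Nr1d2, Nr3c1, Pcdh12, Plod1, Psmc1, Socs2, Sox7, Top2a and Tsc22d3, described below, were not. In that fit Arntl (-0.45), Arrdc4 (-0.78), Atcayos (-0.84), Col5a1 (0.54), Col5a2 (0.73), Hsp90aa1 (0.42), Pdia3 (0.37), Pi16 (0.80), Sparc (0.71) and Timeless (0.85) kept their call with log2 differences smaller by over 1.5 times than those below.

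Aplnr differed most. It encodes the apelin receptor, found on endothelial and heart muscle cells. Its signal was 425, 614, 571, 429 and 504 on the leptin arrays and 33.5, 26.7, 37.9, 31.9 and 44.8 on the calorie restricted arrays. The groups were far apart, with a log2 difference of 3.68 ± 0.22 (SE, adjusted p = 1.03e-07). Untreated ob/ob hearts had 271 ± 115 (SD, n = 4) and wild type hearts 392 ± 117 (SD, n = 4), so the low values were those of the restricted mice. Next came H2-Aa, an MHC class II chain that presents antigen, with a log2 difference of 3.09 ± 0.22, and Col3a1, a chain of fibrillar collagen, with 2.71 ± 0.34. Aldh1a2, which makes retinoic acid, had 33.4 to 54.1 with leptin and 1.18 to 4.16 with restriction. The restricted signals of Aldh1a2 lie under the value added before taking logs. Its log2 difference was accordingly 2.71 ± 0.33 here, 3.83 with an added value of 1 and 1.5 with 20, and it was called in each. The other genes among the 12 highest were Ano10, a membrane protein, Cd74, H2-Eb1, Mpeg1, the nucleotide receptor P2ry6, the cell-cycle kinase Cdk1, Timeless and Nrep, at 1.89 to 2.19. P2ry6 and Cdk1 were also near the added value in the restricted mice, at means of 4.74 and 3.88, and each was at 1.09 with an added value of 20.

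Among the genes lower with leptin, Cirbp led the well expressed ones. It encodes a cold-inducible RNA-binding protein that rises when tissue cools. Its signal was 168, 126, 249, 196 and 175 with leptin and 691, 934, 859, 571 and 762 with restriction. The log2 difference was -2.05 ± 0.16 (SE, adjusted p = 1.08e-06). Ad libitum ob/ob hearts had 272 ± 34.2 (SD, n = 4) and wild type hearts 243 ± 21.7 (SD, n = 4), so here the restricted group was the high one. Chrna2, a nicotinic receptor subunit, had 2.15 to 20.2 with leptin and 43.5 to 71.6 with restriction, at -2.57 ± 0.41. Its leptin signals lie near the added value, and the difference was -3.30 with an added value of 1 and -1.58 with 20. The arrestin-like gene Arrdc4 was at -1.85 ± 0.21, but another of its probe sets had the opposite sign. Gnmt and Psat1, enzymes of glycine and serine metabolism, were at -1.80 and -1.61. The remainder of the 12 lowest were Acot1, Angptl4, Kif15, Pou5f2, Atcayos, Cpt1c and Haus7, at -1.38 to -1.70. Gnmt, Kif15, Pou5f2 and Cpt1c were dim, and with an added value of 20 their differences were -1.17, -0.97, -0.98 and -0.85, all still called.

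**Figure D1:**
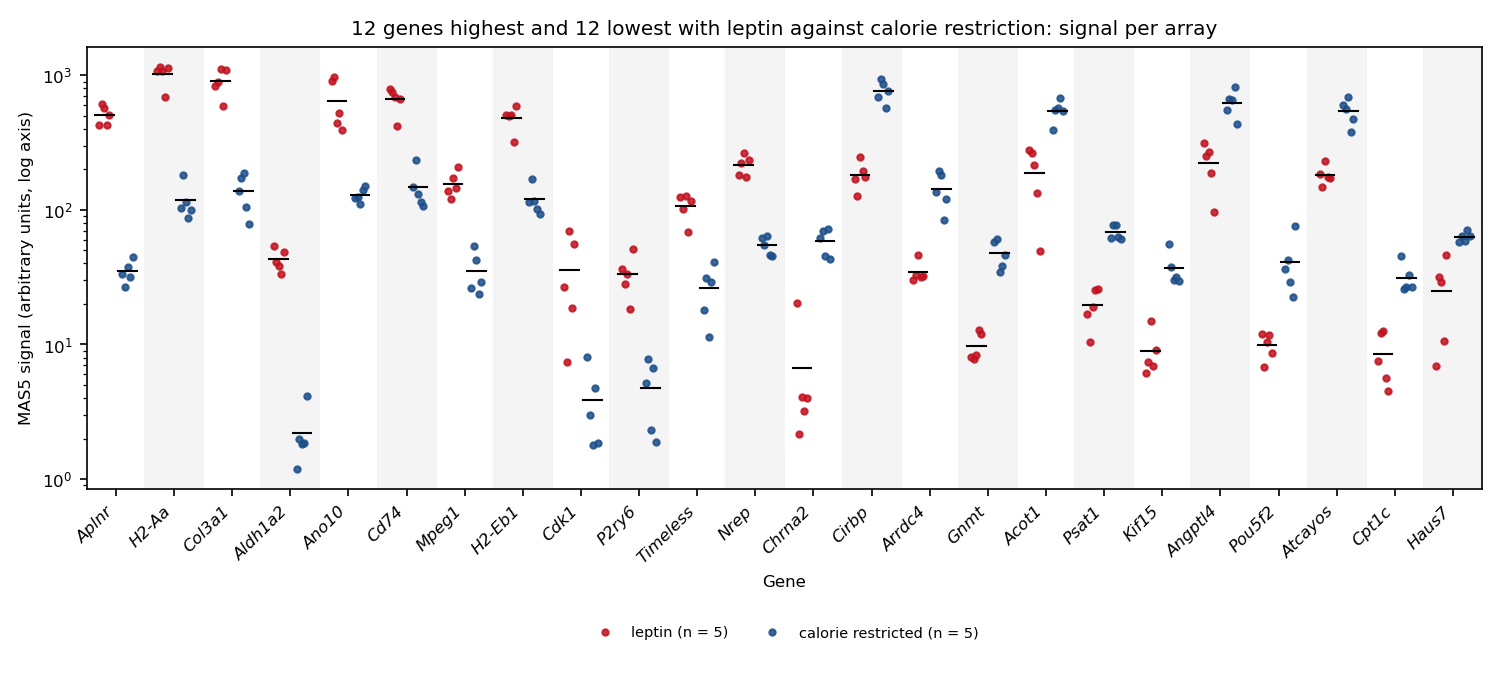
MAS5 signal per array (log axis, arbitrary units) of the 12 genes with the largest higher and the 12 with the largest lower log2 difference among called genes. Each point is an array (5 leptin, 5 calorie restricted) and bars are group means. Cdk1 is among the 24 genes and its groups overlap, with 7.39 to 69.5 with leptin and 1.79 to 8.02 with restriction.

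Many genes of fatty acid use were lower with leptin than with restriction. Of 25 tested genes known to respond to PPAR-alpha, 15 were called lower and 0 higher, with a median log2 difference of -0.44, where the median over all genes tested was -0.025. Without calorie restricted replicates 2 and 3, 12 were called lower. Angptl4, a secreted inhibitor of lipoprotein lipase that rises in fasting, had 312, 252, 270, 189 and 97.1 with leptin. With restriction it had 557, 663, 660, 813 and 435. The 2 groups did not overlap, at -1.53 ± 0.28 (SE, adjusted p = 0.00173), and the mean of the Angptl4 probe sets gave -0.83 (adjusted p = 0.0307). Acot1, which splits fatty acyl-CoA in the cytosol, had 279, 265, 217, 132 and 49.8 with leptin. The restricted arrays had 392, 551, 569, 680 and 540, all above the leptin arrays, at -1.70 ± 0.32. Acot1 shares sequence with its neighbouring family members, so its probes may read them too. Its mitochondrial relative Acot2 was at -0.49 ± 0.11.

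Other PPAR-alpha responsive genes moved the same way. Ucp3, a carrier of the inner mitochondrial membrane, had 170 to 431 with leptin and 543 to 850 with restriction, at -1.11 ± 0.21. Cpt1a, which loads fatty acids onto carnitine, was at -0.66 ± 0.13, and Slc25a20, which carries the product into the mitochondrion, at -0.45 ± 0.10. Mlycd, which removes the inhibitor malonyl-CoA, was at -0.64 ± 0.09, and Pex11a, a peroxisome division protein, at -0.69 ± 0.10. Leptin replicate 5 was the lowest leptin array for Angptl4, Acot1, Ucp3 and Pnpla2. Pdk4, the kinase that turns off pyruvate oxidation, had 1773 to 4859 with leptin and 4538 to 6522 with restriction. At -0.58 ± 0.21 it was not called (adjusted p = 0.0811), and its groups overlapped. Plin2, a lipid droplet coat protein often used as a gauge of stored fat, had 694 ± 87.5 with leptin and 604 ± 79.7 with restriction (SD, n = 5 each) and was not called (adjusted p = 0.304).

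Within mitochondrial fatty acid oxidation, 9 of 25 tested genes were called lower and 2 higher, and without calorie restricted replicates 2 and 3, 8 were called lower. The isomerases Eci2 (-0.54 ± 0.08) and Eci1 (-0.42 ± 0.09) and the thiolase Acaa2 (-0.44 ± 0.09) were among them, each with groups that did not overlap. Acaa2, for example, had 3094 to 4188 with leptin and 4619 to 5570 with restriction, while ad libitum hearts had 3926 ± 302 (SD, n = 4). In fatty acid import and binding, 6 of 18 tested genes were called lower and 2 higher. By sign 8 were positive and 10 negative, and the median was -0.04, near that of all genes tested. Slc27a1, a fatty acid transport protein, had 350, 335, 341, 318 and 281 with leptin against 632, 732, 638, 760 and 629 with restriction. It had the smallest p of that list, at -1.05 ± 0.09 (SE, adjusted p = 5.03e-06). Acsl6, an acyl-CoA synthetase, was at -0.97 ± 0.11, and Dbi, which binds acyl-CoA, at -0.57 ± 0.08. The main fatty acid receptor Cd36 was at -0.27 ± 0.08 with overlapping groups. Its call was lost without calorie restricted replicates 2 and 3, and without any single one of calorie restricted replicates 2, 4 and 5 or leptin replicates 1, 3 and 5 (adjusted p = 0.0543 to 0.0956). Fabp5 (0.60 ± 0.09) and the synthetase Acsl5 (0.42 ± 0.10) were higher with leptin. Lpl, the lipase that frees fatty acids from circulating fat, had 7284 with leptin and 7414 with restriction and was not called.

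The genes of fat breakdown in the cell differed as well. Of 29 tested genes of lipid droplets and triacylglycerol turnover, 10 were called lower and 3 higher with leptin. Without calorie restricted replicates 2 and 3, 8 were called lower. By sign 13 were positive and 16 negative in the main fit, with a median of -0.07. Pnpla2, the first lipase of stored triacylglycerol, had 1957, 1753, 1447, 1633 and 1160 with leptin and 2117, 2826, 2369, 2825 and 2654 with restriction. Its log2 difference was -0.70 ± 0.12 (SE, adjusted p = 0.00103). G0s2, a protein inhibitor of that lipase, differed in the opposite direction, with 640, 808, 780, 534 and 630 with leptin and 350, 279, 380, 315 and 390 with restriction. Every leptin array was above every restricted array, at 0.97 ± 0.12 (SE, adjusted p = 6.24e-05). Wild type hearts had a G0s2 signal of 742 ± 49.9 and ad libitum ob/ob hearts 410 ± 35.8 (SD, n = 4 each). Cidea, a droplet protein, was at -0.71 ± 0.10, and Dgat1, which makes triacylglycerol, at -0.40 ± 0.09. Lipe, the next lipase in line, was at -0.75 ± 0.18, and its call was lost without calorie restricted replicates 2 and 3.

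**Figure D2:**
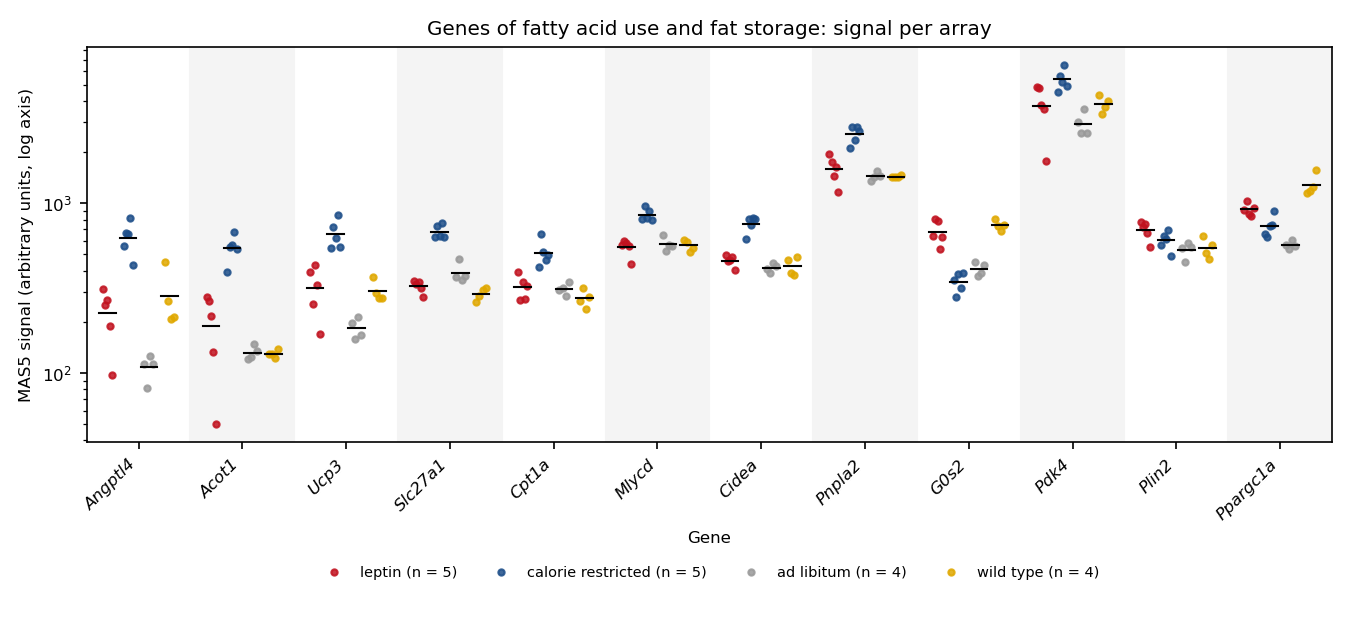
MAS5 signal per array (log axis, arbitrary units) of 12 genes of fatty acid use and fat storage in the leptin (n = 5), calorie restricted (n = 5), ad libitum (n = 4) and wild type (n = 4) arrays, with group means as bars. The restricted arrays are the highest for Slc27a1 and Pnpla2, lie under the leptin arrays for G0s2, and overlap the leptin arrays for Pdk4 and Plin2.

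Regulators of energy metabolism differed in both directions. Of 29 PGC-1 coactivators and nuclear receptors tested, 4 were called higher and 3 lower. Ppara, the gene of PPAR-alpha itself, was higher with leptin at 0.58 ± 0.15, and Ppargc1a, the coactivator of mitochondrial genes, at 0.33 ± 0.10. Both had overlapping groups and lost their call without calorie restricted replicates 2 and 3. Both calls were also lost with the atrial covariate. The Ppargc1a call was also lost without any single one of calorie restricted replicates 1 to 4 or leptin replicates 1, 2 and 5 (adjusted p = 0.0574 to 0.105). Of 72 tested oxidative phosphorylation genes 1 was called, Cox8a, at 0.31 ± 0.07, a call lost without calorie restricted replicates 2 and 3. The median of the 72 was -0.05, and 54 were negative in sign. In pyruvate dehydrogenase and the citric acid cycle 1 of 29 was called, Suclg1, at -0.29 ± 0.08, with overlapping groups. Suclg1 was not called without calorie restricted replicate 2 (adjusted p = 0.0513), without replicates 2 and 3, or with the 10 arrays alone. By sign 24 of the 29 were negative, with a median of -0.12, while 46.1% of all genes tested were positive. The called shares of these 2 lists lie under the background of 13.6%.

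Single genes of glucose and ketone use differed. Of 29 tested genes of glucose uptake, glycolysis and glycogen, 3 were called higher and 2 lower. That is 17.2%, near the 13.6% over all genes tested, and the list median was -0.03. Hk2, which traps glucose in the cell, was at 0.51 ± 0.10, and the transporter Slc2a1 at 0.52 ± 0.12, a call that was lost without calorie restricted replicates 2 and 3. Slc2a4, the insulin-responsive transporter, had 1873 with leptin and 1531 with restriction and was not called (adjusted p = 0.0861). Bdh1, the first enzyme of ketone body oxidation, had 1817, 1697, 1602, 1812 and 1459 with leptin and 939, 592, 693, 910 and 735 with restriction. The leptin arrays were all higher, at 1.13 ± 0.11 (SE, adjusted p = 1.44e-05), and ad libitum hearts had 1907 ± 183 (SD, n = 4). In the list that joins ketone and branched-chain amino acid breakdown, 5 of 22 were called higher and 2 lower. Dbt, a subunit of the branched-chain dehydrogenase, was at 0.56 ± 0.11.

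The leptin receptor pathway differed in a few members. Lepr itself had a low signal, with 16.8 to 46.8 with leptin and 24.7 to 48.0 with restriction, and was not called (adjusted p = 0.854). Socs3, the feedback inhibitor that leptin induces in other tissues, had 96.5 ± 19.3 with leptin and 80.7 ± 15.9 with restriction (SD, n = 5 each) and was not called (adjusted p = 0.469). Stat3, the main transcription factor of the pathway, was not called at 0.21 ± 0.10, and its probe sets differed in sign. Of 28 genes of the pathway tested, 4 were called higher and 1 lower. That is 17.9%, near the 13.6% over all genes tested, and the list median was 0.04. Socs2 was at 0.62 ± 0.13. Irs1, the adaptor that passes on the insulin signal, had 636, 774, 483, 542 and 569 with leptin and 342, 278, 282, 325 and 373 with restriction. Those groups did not overlap, at 0.89 ± 0.13 (SE, adjusted p = 0.000287). In the insulin and IGF list, which also holds Irs1, 4 of 34 were called higher and 4 lower. Ddit4, an inhibitor of mTOR, was lower with leptin at -1.17 ± 0.25, with 315 to 810 against 949 to 2054. Igfbp3, which binds IGF in serum, was at -1.18 ± 0.21 and Igfbp7 at 0.81 ± 0.11.

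Stress hormone, thyroid and antioxidant genes followed. Of 28 glucocorticoid responsive genes tested, 5 were called lower and 1 higher, with a median of -0.16. Tsc22d3, a classic glucocorticoid target, was at -0.51 ± 0.11, Errfi1 at -0.63 ± 0.10 and Sult1a1, a sulfotransferase, at -1.27 ± 0.17, while the receptor Nr3c1 was at 0.36 ± 0.07 with 1 probe set of the opposite sign. The list shares Angptl4 and Ddit4 with those above. Of 19 thyroid hormone responsive genes tested, 2 were called in each direction. Among 35 antioxidant and glutathione genes, 9 were called lower and 2 higher, and 5 were called lower without calorie restricted replicates 2 and 3. Cat, the catalase gene, was at -0.41 ± 0.08, Nqo1, a quinone reductase, at -0.50 ± 0.11, and Gsta4, which clears lipid aldehydes, at -0.69 ± 0.13.

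Many genes of the extracellular matrix were higher with leptin. Of 8 tested chains of fibrillar collagen 5 were called higher and 0 lower, and the same count was reached without calorie restricted replicates 2 and 3. The median log2 difference was 1.10, and 3 of the 8 were negative in sign. Col3a1 had 835, 898, 1124, 591 and 1102 with leptin and 139, 174, 189, 106 and 79.2 with restriction. The ad libitum mean was 818 ± 182 (SD, n = 4) and the wild type mean 1174 ± 984 (SD, n = 4), so the restricted arrays were again the low ones. Col1a1 had 237 ± 39.8 with leptin and 65.8 ± 19.5 with restriction (SD, n = 5 each), at 1.80 ± 0.32. Col1a2 was at 1.31 ± 0.23, Col5a1 at 0.89 ± 0.17 and Col5a2 at 1.53 ± 0.20, the last with 1 of 2 probe sets of the opposite sign.

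The machinery that makes and stabilises collagen was higher as well. In the list of other collagens, folding and cross-linking, 13 of 24 tested genes were called higher and 0 lower, with a median of 0.54, and 13 were called higher without calorie restricted replicates 2 and 3. Serpinh1, the collagen chaperone of the endoplasmic reticulum, had 1126, 1123, 1059, 1083 and 1192 with leptin and 419, 491, 446, 644 and 461 with restriction. The values within each group lay close together, and the log2 difference was 1.19 ± 0.11 (SE, adjusted p = 5.76e-06). Plod1 (0.73 ± 0.10) and P4ha1 (0.91 ± 0.17) hydroxylate collagen, Pcolce (0.95 ± 0.14) aids its cleavage, and Tgm2 (0.64 ± 0.08) cross-links matrix proteins. Col6a1 and Col6a2, chains of microfibrillar collagen, were at 0.99 ± 0.14 and 1.00 ± 0.12.

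In the basement membrane list 7 of 21 tested genes were called higher and 0 lower, 7 also without calorie restricted replicates 2 and 3. The median of that list was 0.20. Col4a1, a main basement membrane chain, had 1456, 1504, 1541, 1370 and 1162 with leptin and 634, 575, 645, 625 and 593 with restriction. Its groups did not overlap, at 1.18 ± 0.10 (SE, adjusted p = 2.58e-06). Its partner Col4a2, which shares a promoter region with it, was at 0.45 ± 0.12 with overlapping groups. Sparc, a collagen-binding glycoprotein, was at 1.28 ± 0.11, with 1 of 3 probe sets of the opposite sign. Among 35 matricellular and remodelling genes tested 11 were called higher and 1 lower. Their median was 0.10, with 22 positive and 13 negative in sign. Fn1 (fibronectin) was at 1.08 ± 0.22, Postn (periostin) at 1.18 ± 0.23 and the protease Mmp2 at 0.90 ± 0.15. Of 32 genes of TGF-beta, a growth factor that drives matrix production, 9 were called higher and 0 lower, with a median of 0.18. That count fell to 5 without leptin replicate 2. Tgfbr2, its receptor, was at 0.50 ± 0.09 and the ubiquitin ligase Smurf2 at 0.88 ± 0.14, or 0.44 with the mean of its probe sets.

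Fibroblast markers were higher with leptin as well. Of 19 tested, 11 were called higher and 1 lower, and 10 higher without calorie restricted replicates 2 and 3. By sign 15 were positive and 4 negative, with a median of 0.52. Their summed signal was 12500 to 14830 with leptin and 9945 to 12490 with restriction, and it was 12530 to 13140 in ad libitum hearts. The list holds collagen genes already described. Markers outside the matrix lists included Thy1, a surface glycoprotein, at 0.74 ± 0.11 and Pi16 at 1.47 ± 0.24. Dpt, at 0.80 ± 0.12, is outside those lists too but is itself a matrix protein. The part of fibroblast number in the collagen differences was not tested.

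**Figure D3:**
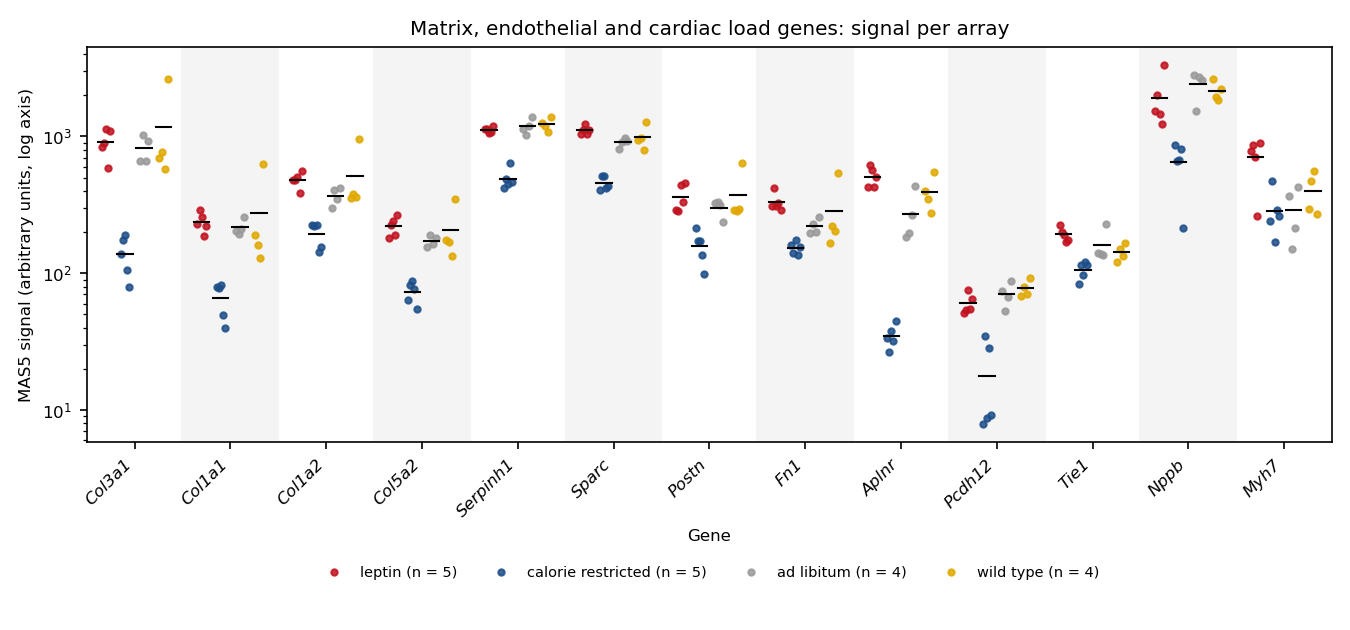
MAS5 signal per array (log axis, arbitrary units) of 13 matrix, endothelial and cardiac load genes in the leptin (n = 5), calorie restricted (n = 5), ad libitum (n = 4) and wild type (n = 4) arrays, with group means as bars. For Aplnr, Serpinh1 and Sparc the 5 restricted arrays lie under all other arrays, and the groups overlap for Myh7.

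Many vessel genes were higher with leptin, beyond the apelin receptor. Of 30 tested genes of the apelin, VEGF and angiopoietin systems, 11 were called higher and 1 lower, with a median of 0.31, and 7 were called higher without calorie restricted replicates 2 and 3. Apln, the ligand of Aplnr, was not called, at -0.14 ± 0.15. Angpt1, an angiopoietin, was called lower with leptin, at -0.50 ± 0.14 (SE, adjusted p = 0.0253). Angpt1 was left out of the checks under alternative fits and of the search for single arrays. The angiopoietin receptor Tek was at 0.56 ± 0.08, its relative Tie1 at 0.83 ± 0.15 and the VEGF co-receptor Nrp1 at 0.52 ± 0.09. The endothelial transcription factors Sox18 and Sox7 were at 0.69 ± 0.09 and 0.74 ± 0.11. Of 24 endothelial markers tested, 9 were called higher and 1 lower, and 6 higher without calorie restricted replicates 2 and 3. The endothelial list also holds Tek and Tie1. Pcdh12, an endothelial cadherin, was at 1.67 ± 0.27, Icam2 at 0.62 ± 0.10 and Cav1, which forms caveolae, at 0.66 ± 0.10. The summed endothelial signal was 14930 to 17020 with leptin and 13820 to 15150 with restriction, so the sums overlapped. Of 16 pericyte and smooth muscle markers 5 were called higher, among them Pdgfrb at 0.45 ± 0.09, and the summed signals overlapped too, at 9264 to 11850 and 9588 to 11480.

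Genes induced by interferon, the antiviral cytokine, were higher with leptin. Of 47 tested, 23 were called higher and 0 lower, 44 had a positive sign, and the median was 0.54. Without calorie restricted replicates 2 and 3, 22 were called higher. Many such genes carry the interferon-stimulated response element, whose core is GAAA, any 2 bases, then GAAA, and which binds STAT and IRF factors. That core was searched on both strands in the RefSeq promoters, from 250 bases before to 50 after the start. Overlapping matches were each counted. It was found at 10 of the 17 called genes that had a promoter in the table (58.8%), at 8 of the 19 uncalled ones (42.1%) and at 384 of 10737 tested genes (3.58%). Of all 32851 promoters in the table, which have the same length, 3.44% held it. The stretches of 5 called genes are shown so that the copies and their spacing can be seen, on GRCm38.p6 and in the direction of the gene, with the core in capitals. Read on the other strand the core appears as TTTC, 2 bases, TTTC.
Rsad2 (chr12:26456523-26456612, minus strand): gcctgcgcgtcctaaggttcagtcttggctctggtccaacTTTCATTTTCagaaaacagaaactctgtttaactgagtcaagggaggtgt
Ifit1 (chr19:34640745-34640834, plus strand): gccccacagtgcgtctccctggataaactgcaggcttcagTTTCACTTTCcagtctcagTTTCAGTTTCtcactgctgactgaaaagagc
Ifit3 (chr19:34583333-34583422, plus strand): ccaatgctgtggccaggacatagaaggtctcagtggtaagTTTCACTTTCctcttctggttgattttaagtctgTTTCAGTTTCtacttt
Gbp2 (chr3:142620564-142620653, plus strand): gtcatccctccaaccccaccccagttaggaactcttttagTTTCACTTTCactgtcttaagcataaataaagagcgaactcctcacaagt
Bst2 (chr8:71537553-71537642, minus strand): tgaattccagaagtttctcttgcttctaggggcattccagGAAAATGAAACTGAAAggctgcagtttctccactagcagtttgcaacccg
Ifit1, Ifit3 and Bst2 carried 2 copies in these stretches, overlapping in Bst2, and Rsad2 and Gbp2 carried 1. A match is a description of the letters and was not tested as a binding site.

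Rsad2, an antiviral enzyme, had 400, 497, 453, 426 and 489 with leptin and 197, 147, 138, 154 and 142 with restriction. The leptin arrays were all higher, at 1.52 ± 0.11 (SE, adjusted p = 7.64e-07), and wild type hearts had 435 ± 58.0 (SD, n = 4). Ifit1, which binds viral RNA, had 81.4 ± 10.2 with leptin and 37.8 ± 8.07 with restriction (SD, n = 5 each), at 1.03 ± 0.15. Ifit2 was at 1.01 ± 0.13, Samd9l at 0.84 ± 0.10, Parp14 at 0.85 ± 0.12 and Ifitm2, which blocks viral entry, at 0.55 ± 0.07, each with groups that did not overlap. Ifit3, Gbp2 and Bst2, whose promoters are shown, were at 0.89 ± 0.18, 0.97 ± 0.14 and 0.79 ± 0.18, the last with overlapping groups.

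Antigen presentation genes showed the same direction. Of 13 tested genes of MHC class II and its regulators, 6 were called higher and 0 lower, and 6 also without calorie restricted replicates 2 and 3. H2-Aa had 1077, 1152, 1078, 690 and 1139 with leptin and 104, 182, 114, 86.9 and 101 with restriction. Ad libitum ob/ob hearts lay between, at 464 ± 136 (SD, n = 4), and wild type hearts had 970 ± 283 (SD, n = 4). Cd74, the invariant chain that guides class II molecules, was at 2.16 ± 0.23, H2-Eb1 at 1.97 ± 0.20 and H2-Ab1 at 1.71 ± 0.21. For H2-Aa, Cd74 and H2-Eb1 leptin replicate 4 was the lowest leptin array and still above all restricted arrays. Of 17 tested genes of class I loading and the immunoproteasome, 9 were called higher and 0 lower. B2m, the light chain of class I, was at 0.87 ± 0.13, and the immunoproteasome subunits Psmb8 and Psmb9, which the interferon list also holds, at 0.72 ± 0.11 and 0.70 ± 0.13. By contrast 5 of 36 constitutive proteasome genes were called lower and 0 higher, Psmc1 among them at -0.37 ± 0.08. Some MHC genes are closely alike in sequence and polymorphic, so a probe set can read more than its named gene.

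Complement and macrophage genes were higher with leptin too. Of 15 complement genes tested 9 were called higher and 0 lower, and 8 higher without calorie restricted replicates 2 and 3. C1qb, part of the first complement component, had 342 to 569 with leptin and 171 to 212 with restriction, at 1.23 ± 0.18. Of 24 macrophage markers tested 16 were called higher and 0 lower, with a median of 0.71, and 17 without calorie restricted replicates 2 and 3. The macrophage list also holds C1qb. Mpeg1, a pore-forming protein of macrophages, had 138, 120, 173, 146 and 208 with leptin and 26.1, 54.4, 42.5, 23.9 and 29.0 with restriction, at 2.04 ± 0.22. Csf1r, the growth factor receptor of macrophages, was at 0.66 ± 0.11 and Adgre1, known as F4/80, at 0.98 ± 0.16. Lyz1 was at 1.07 ± 0.14, and its probes may also read the near-identical Lyz2. The summed signal of 25 macrophage markers was 6273 to 8579 with leptin, 3702 to 5204 with restriction, 5338 to 6656 in ad libitum and 5826 to 9841 in wild type hearts. These sums did not overlap between the 2 treated groups, and the part of macrophage number in the class II and complement differences was not tested. Of 24 chemokine genes tested 6 were called higher and 0 lower, Ccl6 at 0.98 ± 0.16 and Cxcl12 at 0.55 ± 0.09 among them. Of 10 lymphocyte and 10 neutrophil and mast cell markers tested, 0 were called.

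**Figure D4:**
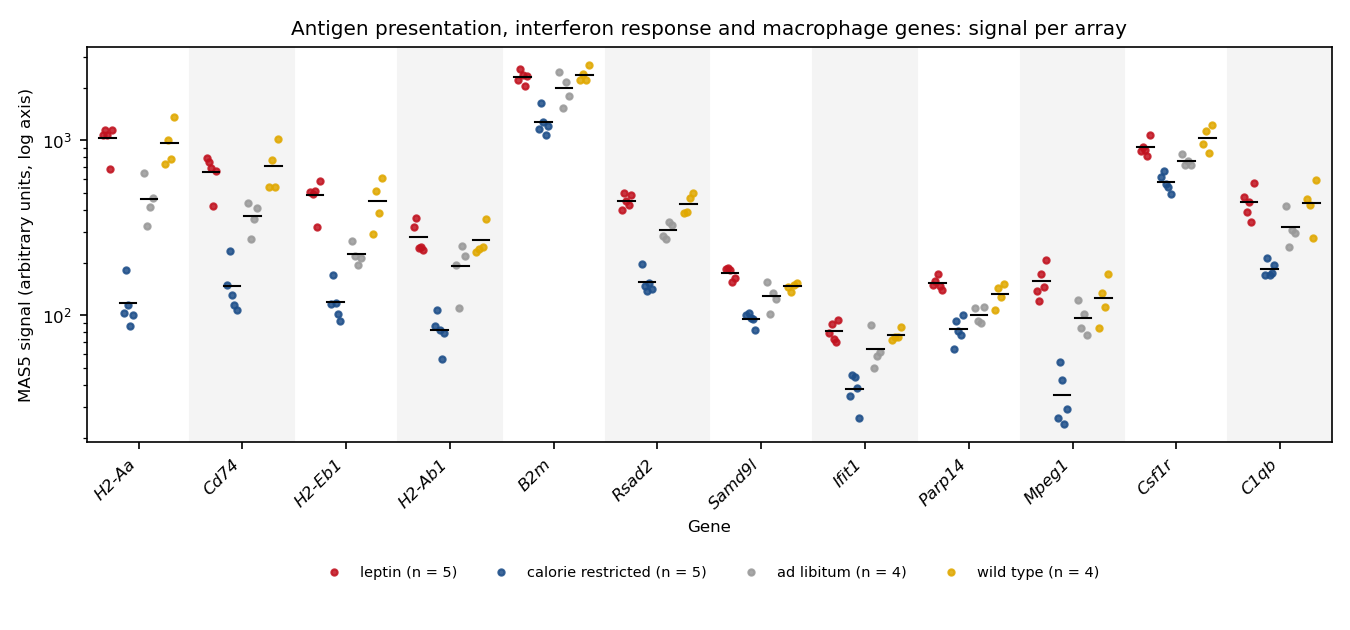
MAS5 signal per array (log axis, arbitrary units) of 12 genes of antigen presentation, interferon response and macrophages in the leptin (n = 5), calorie restricted (n = 5), ad libitum (n = 4) and wild type (n = 4) arrays, with group means as bars. All 5 leptin arrays lie above all 5 restricted arrays for each gene, for example 690 to 1152 against 86.9 to 182 for H2-Aa.

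Cell division genes were low on all arrays. Of 38 tested 6 were called higher and 0 lower. Cdk1 had 26.5, 7.39, 69.5, 18.8 and 55.7 with leptin and 8.02, 2.99, 1.79, 4.74 and 1.85 with restriction, so the groups overlapped. Top2a, which untangles DNA, had 29.7 ± 10.3 and 10.3 ± 4.81 (SD, n = 5 each), at 1.17 ± 0.26, also with overlap.

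Some chaperone genes were higher with leptin. In the list of heat shock and cold-inducible proteins 11 of 30 were called higher and 1 lower, the latter being Cirbp, and 6 were called higher without calorie restricted replicates 2 and 3. By sign, 22 of the 30 were positive. Hsp90aa1, the inducible cytosolic chaperone, had 1207, 1297, 1320, 1409 and 1510 with leptin and 716, 819, 853, 970 and 802 with restriction, at 0.70 ± 0.10. Hsph1, a partner of the HSP70 chaperones, was at 1.18 ± 0.22, the co-chaperone Dnaja1 at 0.70 ± 0.13 and Chordc1 at 0.81 ± 0.15. In the endoplasmic reticulum 9 of 36 folding genes were called higher and 0 lower, 23 were positive in sign, and 5 were called higher without those 2 arrays. Pdia3, which forms disulfide bonds, was at 0.57 ± 0.10 and Manf, a secreted stress protein, at 0.83 ± 0.14.

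Genes of heart muscle function differed in single members. Of 29 cardiac load and fetal isoform genes tested 4 were called in each direction. Nppb, the B-type natriuretic peptide that rises with wall stretch, had 1542, 2007, 1468, 1235 and 3325 with leptin and 863, 665, 677, 807 and 214 with restriction. The groups did not overlap, at 1.61 ± 0.33 (SE, adjusted p = 0.00432), and ad libitum hearts had 2407 ± 587 (SD, n = 4). Myh7, the slow myosin heavy chain of the fetal heart, had 781, 862, 711, 264 and 889 with leptin and 243, 471, 169, 289 and 264 with restriction. Its call at 1.23 ± 0.36 (adjusted p = 0.0315) was lost without calorie restricted replicates 2 and 3. It was also lost without any single one of calorie restricted replicates 1, 3 and 5 or leptin replicates 1, 2, 3 and 5 (adjusted p = 0.0548 to 0.0823). Leptin replicate 4 lay among the restricted arrays. The adult chain Myh6 was at -0.11 ± 0.09 and was not called, and neither was Nppa at -0.47 ± 0.44. Of 44 calcium handling and ion channel genes 10 were called lower and 4 higher, and 6 lower without those 2 arrays. Slc8a1, the sodium-calcium exchanger, had 256, 239, 223, 216 and 288 with leptin and 95.5, 71.3, 92.9, 146 and 83.9 with restriction, at 1.31 ± 0.15. The mean of the Slc8a1 probe sets gave 0.54 (adjusted p = 0.0223). The pore subunit Kcnj11 of the ATP-sensitive potassium channel was at -0.50 ± 0.09, the potassium channel Kcnk1 at -0.87 ± 0.12 and the T-type calcium channel Cacna1h at -0.94 ± 0.19, or -0.57 without those 2 arrays. The alpha-adrenergic receptor Adra1b was at -0.84 ± 0.12.

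Clock genes moved in both directions, with hearts taken at a single time of day. Of 23 tested 3 were called higher and 2 lower. Dbp, an output of the clock, had 524, 373, 656, 797 and 427 with leptin and 251, 192, 154, 117 and 220 with restriction. The leptin arrays were all higher, at 1.54 ± 0.24 (SE, adjusted p = 0.000582). Arntl, the activator known as BMAL1, was lower with leptin, at 59.2 ± 11.7 against 98.1 ± 17.0 (SD, n = 5 each), with overlap. Nr1d2, a repressor of Arntl, was at 0.43 ± 0.09. Ad libitum ob/ob hearts had 113 ± 17.6 for Dbp and 188 ± 11.8 for Arntl (SD, n = 4 each).

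**Figure D5:**
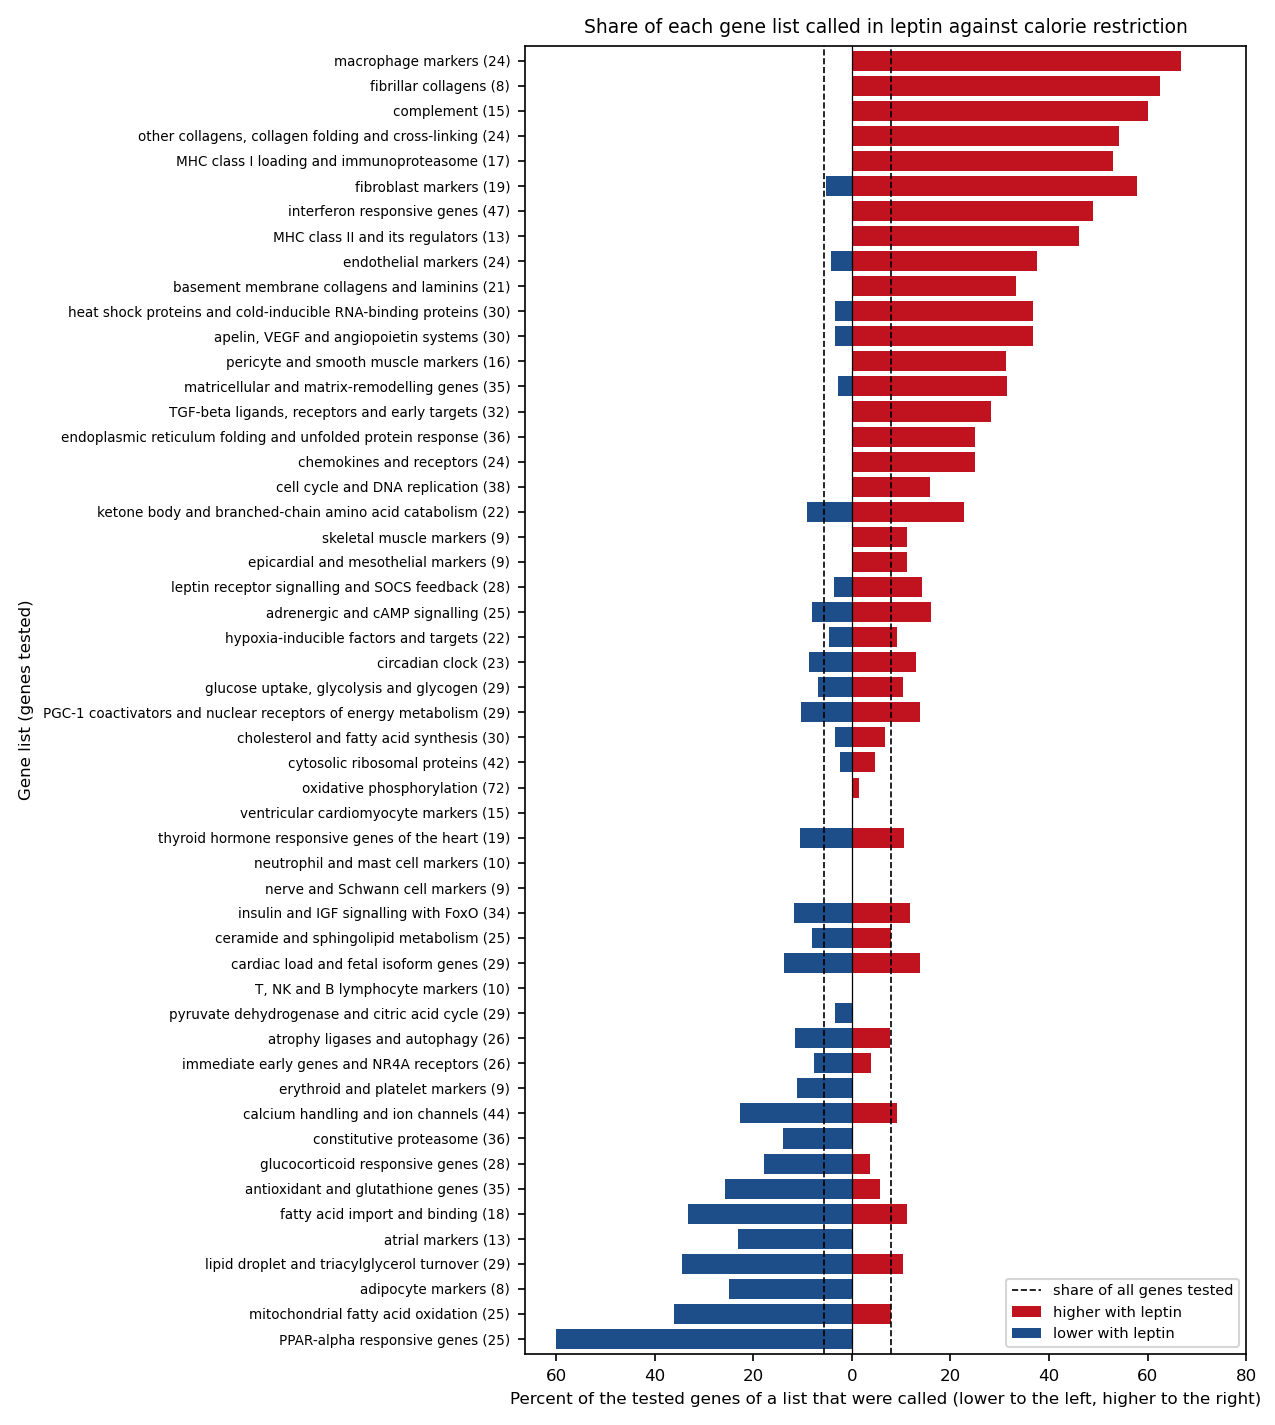
Percent of the tested genes of each list that were called lower with leptin (left) or higher with leptin (right), with the number tested in brackets. Dashed lines mark the shares over all genes tested, 5.72% lower and 7.9% higher. Macrophage markers, fibrillar collagens and complement lie farthest to the right, and PPAR-alpha responsive genes farthest to the left.

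The other lists held between 0 and 6 calls each. Of 30 genes of cholesterol and fatty acid synthesis 2 were called higher and 1 lower, with the elongase Elovl5 at 0.69 ± 0.07, and of 25 ceramide and sphingolipid genes 2 were called in each direction. Of 22 hypoxia genes 2 were called higher and 1 lower, and of 42 ribosomal protein genes likewise 2 and 1. Of 26 atrophy and autophagy genes 2 were called higher and 3 lower, with the ubiquitin ligase subunit Fbxo21 at -0.70 ± 0.09. Of 26 immediate early genes 1 was called higher and 2 lower. Of 25 adrenergic and cAMP genes 4 were called higher and 2 lower. Of 8 adipocyte markers 2 were called lower, Lipe and Cidea, both of which the heart expresses too. Single members were called among skeletal muscle markers (Mybpc2, 1.28 ± 0.16) and epicardial markers (Aldh1a2), and 0 of 9 nerve markers were. Of 9 erythroid and platelet markers 1 was called lower.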

How the data were processed

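Total RNA of 18 ventricular samples was labelled and hybridised to Affymetrix mouse arrays, 1 array per sample. The authors deposited a linear intensity per probe set. Per the submitters' processing notes it came from MAS5, whose version is not given in the sources used here. On every array the mean without the lowest and highest 2% was 100.001, so total RNA per cell cannot be read. Of 45101 probe sets, 64 controls were left out, and 34945 had 1 gene symbol in the platform annotation, 932 several and 9160 none listed. The Entrez identifiers of 34741 were found in the RefSeq table (GRCm38.p6), with 0 symbols changed. Each of 18193 genes was represented by its probe set of highest mean.

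The deposited intensities were put on the log2 scale after adding 5.13 (their 20th percentile), which understates changes of dim genes. Genes with a mean under the 40th percentile (4.36) were left out. limma 3.58.1 in R 4.3.3 fitted 1 model with a coefficient per group to all 18 arrays, and the two-sided contrast of leptin minus calorie restriction was taken with empirical Bayes moderation. Adjusted p-values come from that fit unless an alternative is named with them. Each alternative was adjusted on its own. The 22 alternatives included other added values, filters and scalings and leaving out arrays.

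Members and gene lists were chosen with earlier results of these data known, so a list's count is a description. Named genes were the 12 called genes with the largest difference each way, up to 6 called members of each list with the smallest p (2 where none was called) and a fixed set. Angpt1, Apln, Bst2, Gbp2, Ifit3, Lyz2, Myl4, Myl7 and Sln fall outside that rule and were picked after their values were seen. Promoters came from a RefSeq table with 1 or more starts per gene.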

Additional observations from a re-analysis of the deposited data

Results flagged for a closer look

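Each group of 5 arrays was searched for a highest or lowest array that stood apart from the others by Dixon's ratio. The search covered every gene named in the text other than Angpt1. Of 314 groups 19 were picked out, and chance alone gives about 1 in 20. In each item below the value of the single array is followed by the range of the other 4 arrays of its group.

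Leptin replicate 4 was lowest for the class II genes H2-Aa (690 against 1080 to 1150), Cd74 (421 against 666 to 790) and H2-Eb1 (320 against 496 to 587). It was also lowest for Gbp2 (113 against 154 to 170) and Myh7 (264 against 711 to 889), and highest for Pex11a (375 against 281 to 305). Leptin replicate 2 was highest for the atrial gene Sln (66.3 against 1.12 to 5.04). Leptin replicate 1 was highest for Chrna2 (20.2 against 2.15 to 4.06), leptin replicate 3 for Arrdc4 (46.5 against 30.0 to 33.1), and leptin replicate 5 was lowest for Mlycd (436 against 558 to 599).

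Calorie restricted replicate 1 was lowest for Adra1b (99.6 against 135 to 148) and Gsta4 (1010 against 1590 to 1650), and highest for Gbp2 (89.0 against 67.7 to 72.2) and Lepr (48.0 against 24.7 to 29.5). Calorie restricted replicate 4 was highest for Lpl (9010 against 6840 to 7170) and Pi16 (107 against 70.8 to 74.9). Calorie restricted replicate 5 was lowest for Nppb (214 against 665 to 863) and highest for Ddit4 (2050 against 949 to 1080) and Nr3c1 (332 against 291 to 302).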

How the results depend on the processing

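The count of calls was 1819. It was 1198 with the mean log2 signal of the atrial genes Myl7, Myl4 and Sln as a covariate (445 lower) and 1029 without calorie restricted replicates 2 and 3 (676 higher, 353 lower), a fit with fewer arrays. The cause was not tested. Leaving out single arrays gave 1382 to 1662 calls, and 1129 genes were called the same way in each of these 10 fits. Without calorie restricted replicates 2 and 3 the list counts were 7 for apelin and VEGF, 6 for heat shock proteins, 5 for endoplasmic reticulum folding, 5 for antioxidant genes and 6 for ion channels. With the atrial covariate heat shock proteins had 6. With the mean of probe sets apelin and VEGF had 7 and TGF-beta 5. A fit of the 10 arrays alone called 1318 genes (805 higher, 513 lower), and in it antioxidant genes had 5. Leaving out single arrays gave 5 to 9 for TGF-beta. The other list counts that were recomputed kept within 1.5 times of their main count under all 22 alternatives.

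The labels give the same replicate numbers to both groups. With the number as a replicate block, 1574 genes were called. Deviations of same-numbered arrays correlated at -0.163 to 0.021, so the numbers were not taken to pair the arrays, and Myh7 and Ppargc1a were the named genes whose call was lost under the block. Of 144 genes described here and called, Angpt1 left aside, 122 kept their call under all of the 22 alternatives that tested them. The filter at the 60th percentile left out dimmer genes, and a gene left out there was not counted as lost. Among the 144 genes, 0 changed sign with a call. The number of arrays limits the precision, and dim genes such as Aldh1a2 and Chrna2 have no reliable size. The mean of probe sets ended 17 of the named calls.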

Other observations

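Some further called genes of the lists are given as values. Among receptors of the heart, the natriuretic peptide clearance receptor Npr3 was lower with leptin at -0.65 ± 0.13, with 129 ± 14.0 against 208 ± 46.1 (SD, n = 5 each), and the angiotensin receptor Agtr1a at -0.48 ± 0.10. Ankrd23, a stretch-responsive protein of the muscle filament, was higher at 0.66 ± 0.12. In sphingolipid metabolism the desaturase Degs1 was higher at 0.51 ± 0.08 and the receptor S1pr3 at 0.65 ± 0.09. Eif4ebp1, which holds back translation and is lowered in activity by mTOR, was lower with leptin at -0.47 ± 0.10, while Ulk2, a kinase that starts autophagy, was higher at 0.42 ± 0.09. Mid1ip1, which activates acetyl-CoA carboxylase in fatty acid synthesis, was higher at 0.66 ± 0.13. The groups did not overlap for these 8 genes, and with the mean of probe sets Npr3 (-0.41) and Ulk2 (0.19) were not called. Npr3 was at -0.43 without calorie restricted replicates 2 and 3.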
